A study of Mus musculus with 4 samples.

Results

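The AP-1 transcription factors were examined in cultured mouse rib chondrocytes with and without a deletion of Senp6, as 10 genes picked by name, namely Fos, Fosb, Fosl1, Fosl2, Jun, Junb, Jund, Atf3, Maff and Batf3. All 10 were among the 18298 genes that had a read in at least 1 sample, and 9 of them had enough reads to be tested, the exception being Batf3. No AP-1 member had an adjusted p under 0.05 in the quasi-likelihood test of edgeR, and neither did any other of the 14123 tested genes. Maff was 2.54-fold and Fos 1.94-fold higher in the mutant, and these were the members whose values stood furthest apart between the genotypes. The abundant members Fosl2, Jun, Junb and Jund differed by 1.22-fold or less.

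The mutant group held 2 samples of genotype Dermo1-Cre;Senp6f/f, labelled Senp6-Mut, and the control group held 2 samples of genotype Senp6f/f, labelled WT, which carry the floxed alleles but no Cre. All 4 were primary rib chondrocytes on the C57BL/6 background at passage P1, taken at E18.5 from embryonic rib cartilage and grown in medium with serum. Dermo1-Cre is driven from the Twist2 locus, which is active in mesenchymal progenitors, so cells of other origin in a culture keep their Senp6. SENP6 is a protease that removes chains of the small protein modifiers SUMO2 and SUMO3. Nothing in the labels ties a sample to 1 embryo, so the p values measure only the spread between these samples, and with 2 samples against 2 the smallest p that an exact permutation test can give is 0.333.

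AP-1 is a dimer of basic leucine zipper (bZIP) proteins that binds DNA and turns on genes of growth, stress and matrix turnover. JUN proteins pair with each other or with a FOS protein, whereas FOS proteins need a partner, usually a JUN protein, to bind. Many FOS and JUN genes are immediate early genes, whose transcripts appear and vanish quickly after serum, cytokines or mechanical stress, and in cartilage AP-1 is known for its part in hypertrophy and in the expression of matrix metalloproteinases.

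The libraries held between 21.02 M and 30.99 M reads counted on genes (M, 1e6 reads). Senp6 itself had 1125 and 2326 reads in the WT samples and 1839 and 1126 in the Senp6-Mut samples, a log2 fold change of -0.56 (SE, the standard error, 0.279, edgeR adjusted p = 0.410), and the groups overlapped. Reads on the exons that remain after the deletion are counted too, so this is not a measure of recombination. WT replicate 1 lay furthest from the Senp6-Mut samples, and WT replicate 2 was almost as far from WT replicate 1 (Euclidean distance 64.6 over the log2 CPM, the scaled counts per 1e6 reads, of the tested genes) as from Senp6-Mut replicate 1 (distance 65.5). The Senp6-Mut samples were 45.2 apart. Xist is the RNA of the inactive X chromosome and so of female cells. It had 11354 reads in Senp6-Mut replicate 2 and at most 5 in each other sample. Xist thus differed within the mutant group and between the groups. Senp6-Mut replicate 2 also had the highest CPM of Fos and of Maff, and any tie of these values to Xist was not tested.

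Promoter sequences were searched for the letters of a few known motifs beside the start sites of the members. RefSeq (GRCm38.p6) gave windows of 300 bases, from 250 before to 50 after a start site, for 9 of the 10 members, the exception being Fosl1, and 11 windows in all. Fos and Maff are shown because they differed most between the genotypes, and Jun because its window shares an element with that of Maff. Capitals mark the motifs that were found on either strand. Near matches with a changed letter were not looked for, so unmarked bases may hold other elements.

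The window of Fos lies at chr12:85473640-85473939 on the forward strand, those of Maff at chr15:79347270-79347569 and chr15:79348152-79348451 on the forward strand, and that of Jun at chr4:95052173-95052472 on the reverse strand.
Fos: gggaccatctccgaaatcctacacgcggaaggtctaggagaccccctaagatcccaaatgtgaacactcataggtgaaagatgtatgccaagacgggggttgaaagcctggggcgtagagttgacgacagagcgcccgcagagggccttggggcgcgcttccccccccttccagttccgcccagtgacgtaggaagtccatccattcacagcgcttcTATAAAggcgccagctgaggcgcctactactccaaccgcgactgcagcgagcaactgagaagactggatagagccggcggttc
Maff, middle start site: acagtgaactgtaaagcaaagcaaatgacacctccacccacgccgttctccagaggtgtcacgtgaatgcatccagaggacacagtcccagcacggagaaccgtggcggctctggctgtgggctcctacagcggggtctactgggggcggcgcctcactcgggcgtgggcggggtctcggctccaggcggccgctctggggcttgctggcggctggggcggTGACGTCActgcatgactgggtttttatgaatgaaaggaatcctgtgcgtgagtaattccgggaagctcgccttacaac
Maff, last start site: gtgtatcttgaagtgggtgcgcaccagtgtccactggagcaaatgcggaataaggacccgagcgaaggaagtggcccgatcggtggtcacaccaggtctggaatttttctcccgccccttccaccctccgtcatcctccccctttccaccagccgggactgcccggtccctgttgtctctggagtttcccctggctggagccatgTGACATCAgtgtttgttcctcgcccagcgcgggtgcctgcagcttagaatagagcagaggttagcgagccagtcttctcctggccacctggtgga
Jun: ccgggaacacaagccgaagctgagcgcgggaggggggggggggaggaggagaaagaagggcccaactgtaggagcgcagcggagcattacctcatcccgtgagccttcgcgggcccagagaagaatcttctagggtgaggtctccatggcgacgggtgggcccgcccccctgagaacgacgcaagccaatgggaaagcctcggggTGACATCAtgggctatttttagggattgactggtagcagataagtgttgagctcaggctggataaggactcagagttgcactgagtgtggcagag

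The motif TGACATCA, an AP-1 element bound by JUN and ATF proteins, began 45 bases before the start site of Jun and, likewise, 45 bases before the last of the 3 start sites of Maff. It was present in 3.62% of the 32851 promoter windows of all genes and in 1.81% of the 14236 windows of the tested genes. The middle start site of Maff had the cAMP response element TGACGTCA, which began 29 bases upstream and was found in 1.79% of all windows and in 2.94% of those of the tested genes. The TATA box of Fos, with the letters TATAAA, began 33 bases upstream. The window of Junb held the same letters, beginning at base 1, the listed start site. This motif was found in 13.6% of all windows and in 7.41% of those of the tested genes. The window of Atf3 held the letters TTGCATCA, the reverse complement of the composite C/EBP-ATF element TGATGCAA, 110 bases upstream, in common with 0.895% of all windows and 0.562% of those of the tested genes. The 7-base AP-1 site TGACTCA (in 5.20% of all windows and 3.95% of those of the tested genes) and the CArG box bound by serum response factor (in 1.63% and 1.27%) were in none of the 11 windows of the members, which says nothing of sites further upstream. No match overlapped another. The window of Jund, at chr8:70697489-70697788 on the forward strand, ended before the GENCODE start of this gene at 70698949. The sequence beside that start was thus not searched.

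The 10 members fell into an abundant and a scarce class on the RPKM scale, which divides the reads by gene length and library size. In the WT samples the mean RPKM was 46.0 ± 3.60 (SD, n = 2) for Junb, 43.4 ± 5.76 for Fosl2, 41.7 ± 11.97 for Jund and 40.5 ± 0.813 for Jun. Junb was above Jun in each of the 4 samples, and every other pair of these genes overlapped in the WT samples. Fosl1 followed with 3.72 ± 0.994, Fos with 2.66 ± 0.224, Maff with 2.48 ± 0.219, Fosb with 0.896 ± 0.352, Atf3 with 0.388 ± 0.107 and Batf3 with 0.127 ± 0.104. Averaged over the 4 samples, each abundant member was above at least 87.8% of the tested genes, whereas Fos was above 36.1% and Atf3 above 10.9%.

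**Figure D1:**
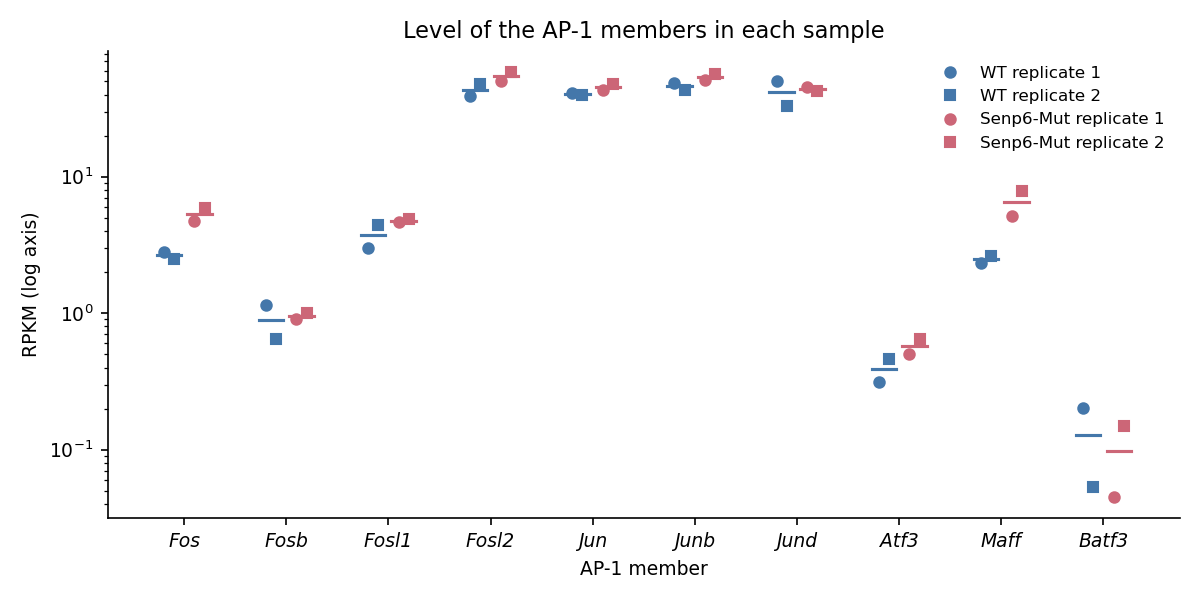
RPKM of the 10 AP-1 members (log axis) in each of the 4 samples; blue is WT, red is Senp6-Mut, circles and squares are replicates 1 and 2, and bars are the means of 2 samples. Fos and Maff are the scarce members whose Senp6-Mut values lie clearly above the WT values, while Fosl2, Jun, Junb and Jund sit between 33.2 and 58.6 in every sample.

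Among the scarce members the order by RPKM was not the same in the genotypes. The Fos to Fosl1 ratio of replicate 1 was close to 1 in both, and a part of the Fosl1 reads is uncertain, as described below. Fosl1 was above Fos in both WT samples, with a Fos to Fosl1 ratio of 0.937 and 0.567, and below it in both Senp6-Mut samples, with a ratio of 1.02 and 1.20. The ratio of Maff to Fosl1 was 0.772 and 0.596 in WT and 1.11 and 1.61 in Senp6-Mut. For each ratio the groups did not overlap, which gave the smallest two-sided p of the exact permutation test, 0.333.

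Fos, the founding member of the FOS family and a rapidly induced immediate early gene, had an RPKM of 2.82 and 2.51 in WT replicates 1 and 2 and of 4.75 and 5.90 in Senp6-Mut replicates 1 and 2, from 125 to 351 reads. Both mutant values lay above both control values. Its log2 fold change was 0.95 (SE 0.220, edgeR adjusted p = 0.122), against a gap of 0.23 between the WT samples and of 0.28 in size between the Senp6-Mut samples. The unadjusted p was 0.00394, which ranked 453 among the 14123 tested genes. DESeq2 gave an adjusted p of 0.0360 for Fos. The adjusted p of edgeR was 0.0227 without WT replicate 1 and 0.0305 without WT replicate 2. It was 0.154 without Senp6-Mut replicate 1 and 0.688 without Senp6-Mut replicate 2.

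Fosl2, which encodes FRA2 and is the FOS protein known for its roles in chondrocytes and osteoblasts, was by far the most abundant FOS transcript. Its RPKM was 39.4 and 47.5 in WT and 50.2 and 58.6 in Senp6-Mut, from 4870 to 9738 reads. The groups did not overlap, although WT replicate 2 was close to Senp6-Mut replicate 1. The log2 fold change of 0.28 (SE 0.142, edgeR adjusted p = 0.408) was little larger than the gap of 0.21 between the WT samples.

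Fosl1 encodes FRA1, a slower member that AP-1 itself is known to induce. Its RPKM was 3.01 and 4.42 in WT and 4.66 and 4.90 in Senp6-Mut, and the log2 fold change was 0.32 (SE 0.242, edgeR adjusted p = 0.594). The groups did not overlap, but the WT samples were 0.49 apart on the log2 scale, more than the genotypes. Reads covered only 43.9% to 48.8% of the length of Fosl1 with 108 to 246 reads, while for Fos the covered share was 81.8% to 89.2%. In GENCODE the gene Ccdc85b, with 731 to 900 reads per sample, overlaps the span of Fosl1 by 2767 bases on the opposite strand, and it is not stated whether strand was used in counting, so a part of these reads may be uncertain.

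Fosb, another quickly induced FOS gene, had an RPKM of 1.14 and 0.647 in WT and of 0.913 and 1.001 in Senp6-Mut, from 64 to 107 reads. The mutant values lay between those of the controls. Fosb had a log2 difference of 0.05 (SE 0.348, edgeR adjusted p = 0.960), and the gap between the WT samples was 0.88. Without WT replicate 1 the log2 fold change was 0.54 and without WT replicate 2 it was -0.36, so its sign was set by the control sample used.

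**Figure D2:**
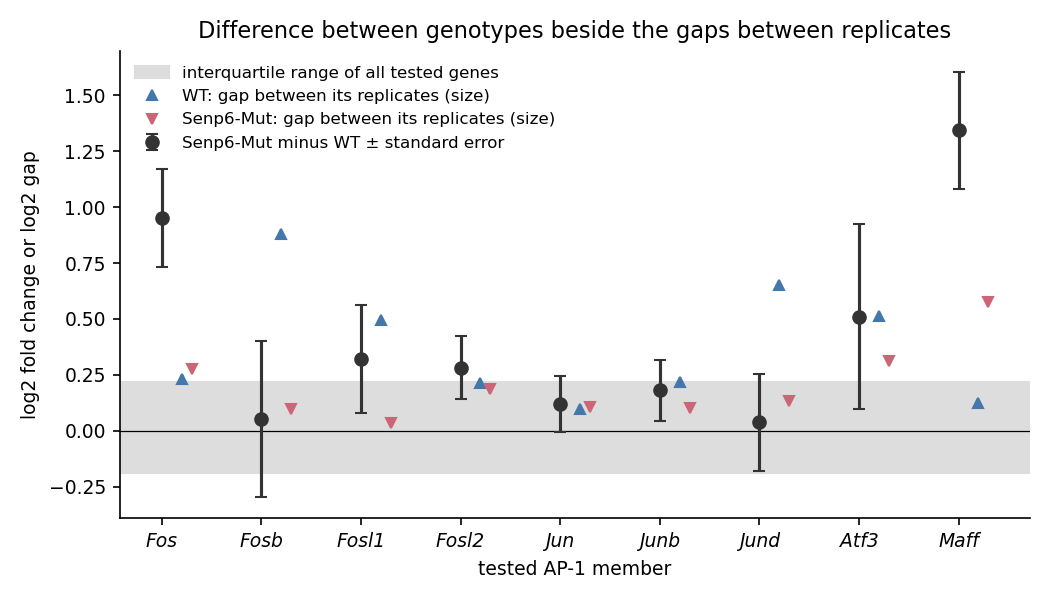
Log2 fold change of Senp6-Mut minus WT with its standard error (black, edgeR) for the 9 tested members, beside the size of the gap between the 2 replicates of each genotype (triangles, log2 CPM) and the interquartile range of all tested genes (grey band, from -0.19 to 0.22). Only for Fos and Maff does the difference exceed both gaps by more than its standard error.

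The JUN family differed little between the genotypes. Jun, the main partner of FOS and itself induced through its own AP-1 element, had an RPKM of 41.0 and 39.9 in WT and of 43.0 and 47.5 in Senp6-Mut, a log2 fold change of 0.12 (SE 0.125, edgeR adjusted p = 0.708). The groups were separate after TMM scaling, at 135.4 and 126.5 CPM in WT and 137.0 and 147.4 in Senp6-Mut, and overlapped under the size factors of DESeq2.

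Junb, which can hold back or replace JUN, had an RPKM of 48.5 and 43.5 in WT and of 51.2 and 56.4 in Senp6-Mut. Its log2 fold change of 0.18 (SE 0.136, edgeR adjusted p = 0.590) was smaller than the gap of 0.22 between the WT samples. In GENCODE, Junb and Prdx2 overlap by 351 bases on opposite strands, and Prdx2 had 4598 to 5695 reads per sample.

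Jund, the JUN gene that is expressed steadily in most cells, had an RPKM of 50.2 and 33.2 in WT and of 45.7 and 42.8 in Senp6-Mut. The mutant values fell between the control values, which were 0.65 apart on the log2 scale. The log2 fold change was 0.04 (SE 0.218, edgeR adjusted p = 0.954), and it was 0.39 without WT replicate 1 and -0.28 without WT replicate 2.

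Maff, a small MAF protein that has a bZIP domain but no activation domain and that dimerizes with FOS and with NRF2, showed the widest difference of the members. Its RPKM was 2.33 and 2.64 in WT and 5.14 and 7.87 in Senp6-Mut, from 88 to 400 reads. The lowest mutant value was well above the highest control value. Maff had a log2 fold change of 1.34 (SE 0.262, edgeR adjusted p = 0.0961), which put Maff above 96.4% of the tested genes, and the gaps between replicates were 0.12 in WT and 0.58 in Senp6-Mut. DESeq2 gave an adjusted p of 0.00274. Without Senp6-Mut replicate 2 the log2 fold change was 1.03 and the adjusted p of edgeR 0.423, while leaving out each of the other samples brought the adjusted p between 0.00943 and 0.0305.

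Atf3, a stress-induced bZIP protein that also pairs with JUN, was read only 13 and 24 times in WT and 31 and 36 times in Senp6-Mut, an RPKM of 0.312 and 0.463 against 0.505 and 0.643. The groups did not overlap, but the exact 95% Poisson interval of the second WT count (15.4 to 35.7 reads) and that of the first Senp6-Mut count (21.1 to 44.0 reads) did, before any spread between cultures. The log2 fold change was 0.51 (SE 0.415, edgeR adjusted p = 0.623), as large as the gap between the WT samples. Batf3, which is known for its role in dendritic cells, had 3 and 1 reads in WT and 1 and 3 in Senp6-Mut, at which depth no difference was detectable and no fold is given. Poisson intervals cover counting error only.

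Summed over its 4 genes, the FOS family had an RPKM of 46.4 and 55.1 in WT and of 60.5 and 70.4 in Senp6-Mut, 1.29-fold higher on the mean. The JUN family summed to 139.7 and 116.6 in WT and to 139.9 and 146.7 in Senp6-Mut, 1.12-fold higher. The summed RPKM of the FOS genes was thus 0.332 and 0.473 of that of the JUN genes in WT and 0.432 and 0.480 in Senp6-Mut, and the groups overlapped. When Fosl2 was left out, the other FOS genes summed to 6.98 and 7.57 in WT and to 10.3 and 11.8 in Senp6-Mut, 1.52-fold higher.

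Fosl2 made up 84.9% and 86.3% of the summed RPKM of the FOS family in WT and 83.0% and 83.2% in Senp6-Mut. The share of Fos was 6.09% and 4.55% in WT and 7.84% and 8.38% in Senp6-Mut. For these subunits the groups did not overlap, with a two-sided p of 0.333 in the exact permutation test, and the p adjusted over the 7 subunits was 1. The shares of Fosb, Fosl1, Jun and Jund overlapped between the genotypes, as did that of Junb, which was 36.0% ± 1.80 in WT and 37.5% ± 1.31 in Senp6-Mut (SD, n = 2).

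**Figure D3:**
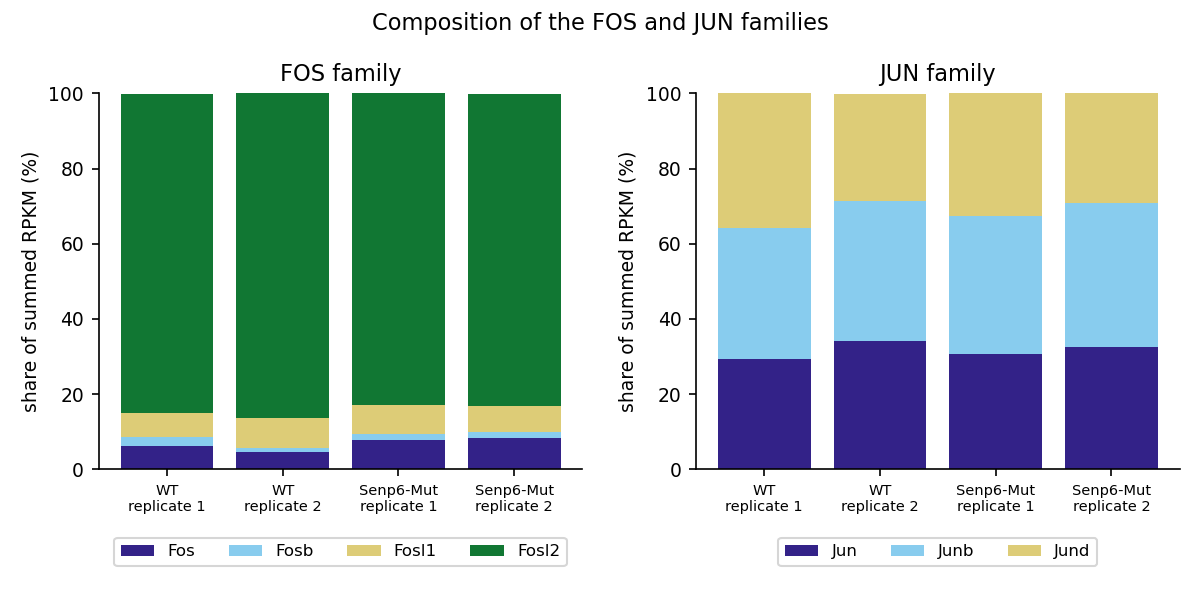
Share (%) of each gene in the summed RPKM of the FOS family (left) and of the JUN family (right) in each sample. Fosl2 takes between 83.0% and 86.3% of the FOS family in every sample, while Jun, Junb and Jund take between 28.5% and 38.5% of the JUN family each.

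For 7 of the 9 tested members (Fos, Fosl1, Fosl2, Jun, Junb, Atf3 and Maff) both Senp6-Mut samples were above both WT samples in TMM-scaled CPM, and for the other 2 (Fosb and Jund) the groups overlapped. Over all 14123 tested genes this held for 25.4%, and both mutant samples were below both controls for 22.8% of the genes and 0 of the 9 members. The log2 fold change was above 0 for 9 of the 9 members and for 51.4% of all tested genes. The median log2 fold change was 0.28 over the tested members and 0.01 over all tested genes. The members were chosen with earlier results of these samples known, so these counts describe the family and are not a test of it.

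Past an adjusted p of 0.05 in edgeR were 0% of all tested genes as higher and 0% as lower, and the smallest adjusted p was 0.0512. At an unadjusted p under 0.05 were 2 of the 9 members, Fos and Maff, and 15.6% of all tested genes. With DESeq2, 2 of the 9 members were called higher, again Fos and Maff, beside 3.07% of all genes, and 0 members were called lower, beside 1.86% of all genes.

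**Figure D4:**
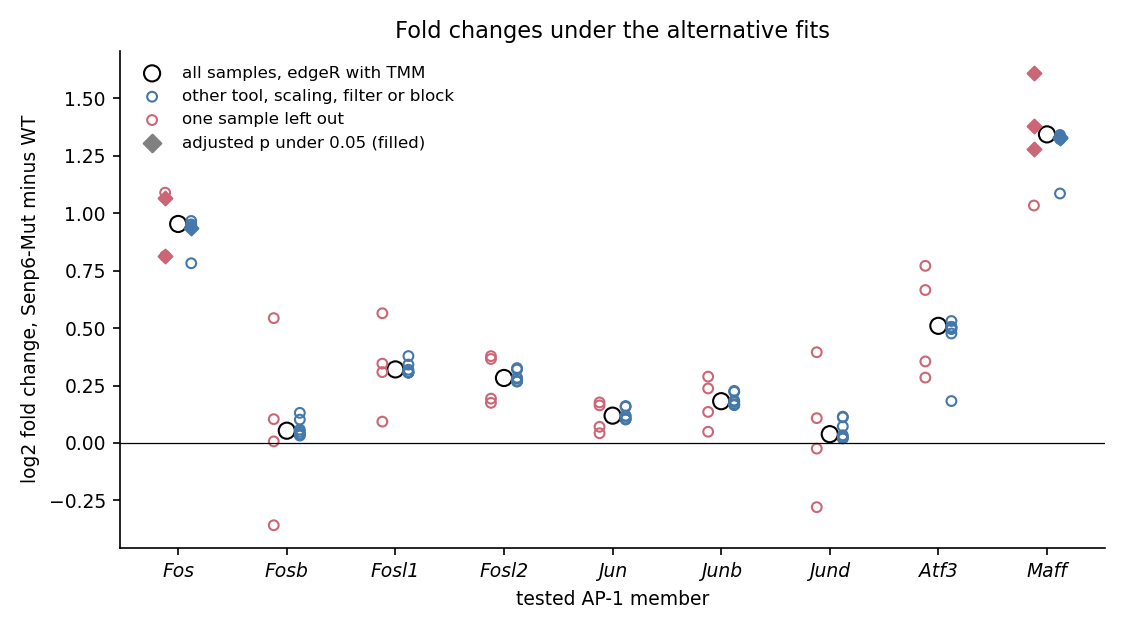
Log2 fold change of each tested member with all samples in edgeR (large black circles), with 1 sample left out (red) and with another tool, scaling, filter or block (blue); filled diamonds mark an adjusted p under 0.05. Filled points occur for Fos and Maff, in 3 and 5 of their 11 alternative fits, and the values of Fosb and Jund lie on both sides of 0.

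The 21 other bZIP genes of the list, which can pair or compete with AP-1, did not share this direction. Of 18 tested, 0 were called in edgeR, and the median log2 fold change was 0.02. Both mutant samples were above both controls for 4 and below for 4, beside 25.4% and 22.8% of all tested genes. Maf, a large MAF factor of hypertrophic chondrocytes, had an RPKM of 33.8 and 21.8 in WT and of 17.3 and 19.0 in Senp6-Mut, a log2 fold change of -0.67 (SE 0.226, edgeR adjusted p = 0.231, DESeq2 adjusted p = 0.0805). Maf is also expressed in macrophages, and 8 of the 8 tested macrophage markers were lower in both mutant samples. The 9 macrophage markers in the files summed to an RPKM of 22.3 and 19.1 in WT and of 8.87 and 12.02 in Senp6-Mut, with Ptprc at or below 0.0427 in every sample. Their part in the values of Maf was not tested.

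Crem, a bZIP gene of the cAMP response, had an RPKM of 1.33 and 2.00 in WT and of 2.31 and 2.96 in Senp6-Mut, a log2 fold change of 0.62 (SE 0.274, edgeR adjusted p = 0.346, DESeq2 adjusted p = 0.488).

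Transcripts of genes that act upstream of AP-1 had medians near 0. Transcript levels do not measure the activity of the kinases, which was not tested. Over all tested genes, both mutant samples were above both controls for 25.4% and below for 22.8%. Of 29 tested kinases of the ERK, JNK and p38 cascades, 8 were higher and 6 lower in both mutant samples, with a median log2 fold change of 0.01. For serum response factor and its partners, which switch on Fos, 2 of 6 tested genes were higher and 1 was lower, with a median of 0.05. Of 14 tested genes that act on the turnover of AP-1 proteins or transcripts, 4 were higher and 3 lower, with a median of 0.10. In these lists 0 genes were called by edgeR and 0 by DESeq2. Of all tested genes, DESeq2 called 3.07% higher and 1.86% lower. At an unadjusted p under 0.05 in edgeR were 4 of the kinases, 0 of the serum response factor genes and 1 of the turnover genes. This held for 15.6% of all tested genes.

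Genes that AP-1 is known to bind and activate lay mostly higher in the mutant. The list was chosen with earlier results of these data known, so its counts describe the list and are not a test. Both Senp6-Mut samples were above both WT samples for 21 of 28 tested target genes, beside 25.4% of all tested genes. They were below for 2, beside 22.8% of all. The median log2 fold change was 0.69, and the part of AP-1 in these values was not tested. In edgeR 0 were called, and 16 had an unadjusted p under 0.05, beside 15.6% of all tested genes. DESeq2 called 12 higher, beside 3.07% of all genes, and 0 lower. Il6, the inflammatory cytokine, had an RPKM of 0.306 and 0.598 in WT and of 1.96 and 3.94 in Senp6-Mut, a log2 fold change of 2.62 (SE 0.512, edgeR adjusted p = 0.0965, DESeq2 adjusted p = 0.00369). Ptgs2, which encodes the prostaglandin synthase COX-2, had an RPKM of 2.59 and 8.43 in WT and of 20.1 and 31.1 in Senp6-Mut, a log2 fold change of 2.18 (SE 0.497, edgeR adjusted p = 0.122, DESeq2 adjusted p = 0.0922). Lif, a cytokine of the same family as IL-6, stood at an RPKM of 0.356 and 0.629 against 1.76 and 2.64, a log2 fold change of 2.10 (SE 0.347, edgeR adjusted p = 0.0852, DESeq2 adjusted p = 4.74e-05).

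The matrix metalloproteinase Mmp13, a classical AP-1 target of hypertrophic chondrocytes, went against this direction. Its RPKM was 48.4 and 55.3 in WT and 27.4 and 47.5 in Senp6-Mut, and its log2 fold change was -0.52 (SE 0.242, edgeR adjusted p = 0.374). It was 1 of the 2 targets with both mutant samples below both controls, the other being the integrin gene Itgb3, which was lower in scaled counts but overlapped in RPKM, and these were singled out after their values were seen.

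The immediate early genes outside the AP-1 family had a median log2 fold change of 0.43 over 22 tested genes. This list, too, was chosen with earlier results known. Both mutant samples were above both controls for 15 and below for 1, beside 25.4% and 22.8% of all tested genes. In edgeR 0 were called, and 11 had an unadjusted p under 0.05, beside 15.6% of all tested genes. DESeq2 called 6 higher, beside 3.07% of all genes, and 0 lower. Ctgf, a matricellular gene that responds to mechanical stress and TGF-β, had an RPKM of 39.5 and 59.3 in WT and of 120.0 and 174.4 in Senp6-Mut, a log2 fold change of 1.53 (SE 0.238, edgeR adjusted p = 0.0833, DESeq2 adjusted p = 4.93e-08). Nr4a1, an orphan nuclear receptor, stood at an RPKM of 5.09 and 6.14 against 12.6 and 20.4, a log2 fold change of 1.51 (SE 0.239, edgeR adjusted p = 0.0833, DESeq2 adjusted p = 4.72e-06). Ier3, an early response gene of survival signals, stood at 14.5 and 21.9 against 37.3 and 54.9, a log2 fold change of 1.30 (SE 0.246, edgeR adjusted p = 0.0943, DESeq2 adjusted p = 0.000121). 

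**Figure D5:**
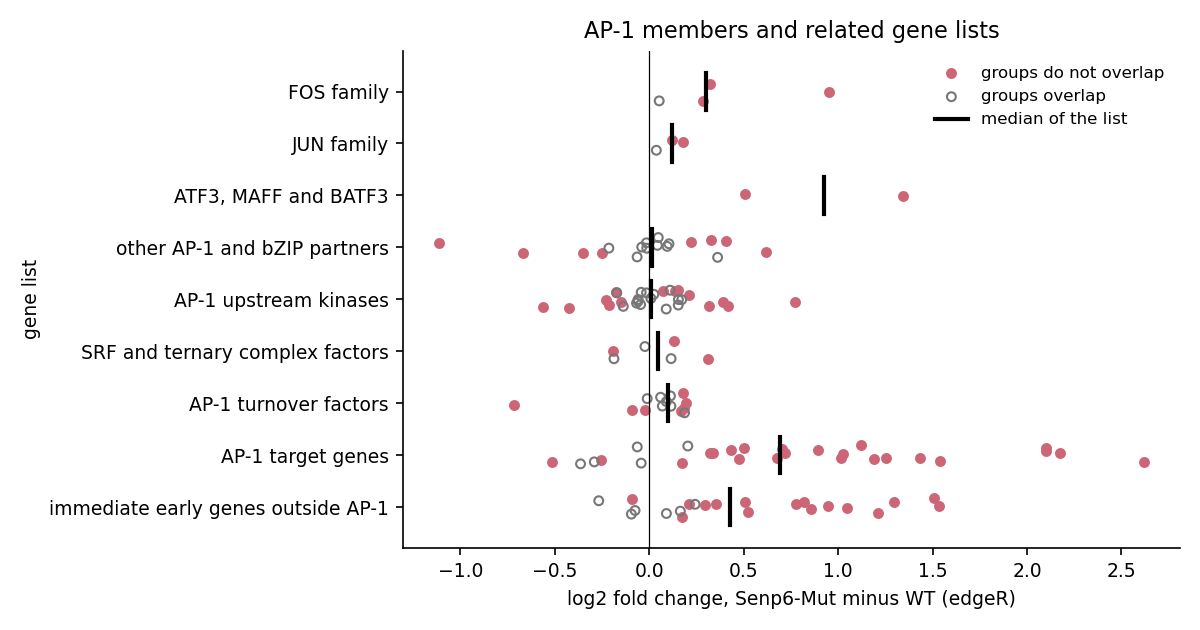
Log2 fold change (edgeR, Senp6-Mut minus WT) of each tested gene in the AP-1 families and in the related lists; filled red points are genes whose groups do not overlap, open points are genes whose groups overlap, and black bars are list medians. The medians of the target genes (0.69) and of the immediate early genes (0.43) lie to the right of 0, and those of the kinases (0.01) and the bZIP partners (0.02) lie on it.

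Marker transcripts of several cell types in the cultures differed between the genotypes, although edgeR called none of them. DESeq2 called 9 chondrocyte markers, 2 osteoblast markers and 1 macrophage marker lower, beside 1.86% of all tested genes. It called 3 skeletal muscle markers and 1 fibroblast or tendon marker higher, beside 3.07% of all tested genes. Over all tested genes, both mutant samples were above both controls for 25.4% and below for 22.8%. Of 13 tested chondrocyte markers, 11 were lower in both mutant samples, and the summed RPKM of this list was 982.4 and 970.8 in WT and 508.9 and 633.0 in Senp6-Mut, most of it from Col2a1. Each of these markers was read in every sample. Of 11 tested skeletal muscle markers, 7 were higher in both mutant samples, and their summed RPKM was 100.1 and 33.8 in WT and 163.1 and 185.0 in Senp6-Mut, with Pax7 at or near 0 in every sample. The 4 tested osteoblast markers were lower in both mutant samples, at a summed RPKM of 172.0 and 69.9 against 19.2 and 40.6, with Bglap and Dmp1 near 0. The 10 fibroblast and tendon markers summed to 12907 and 8925 in WT and to 9001 and 6621 in Senp6-Mut, of which 1 was higher and 5 were lower. The 8 blood and endothelial markers in the files summed to between 1.01 and 1.57 in each sample. In bulk RNA, fewer cells of a type and less RNA per cell cannot be told apart, and the part of these shifts in the values of Fos and Maff was not tested. WT replicate 2 had the lowest muscle sum, and without it the log2 fold change was 0.81 for Fos and 1.38 for Maff. The muscle sum of WT replicate 1 was also below both mutant sums, so this fit does not remove the difference in muscle transcripts.

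Among the tested genes whose profile over the 4 samples was nearest to the median profile of the 9 tested members were Arl8a, N4bp1, Scamp1 and Elf1. Their Euclidean distances in centred log2 CPM lay between 0.0812 and 0.0835. The median member profile was -0.25 and -0.20 in WT and 0.10 and 0.19 in Senp6-Mut.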

How the data were processed

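RNA from 2 Senp6-Mut and 2 WT cultures was sequenced by a service. Per sample and gene, the authors deposited a raw read count, an RPKM (count per kilobase of listed length and per 1e6 counted reads) and a percent coverage of the gene, which was only described. The submitters' processing notes name SAMtools and mm9; the aligner, counter and annotation are not given in the sources used here. Genes not listed in a sample were given a count of 0. Positions and promoters are those of GENCODE and RefSeq for GRCm38, matched by gene identifier, and no coordinate was converted.

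A gene was tested when 2 samples or more had 10 counts or more (14123 genes). Tests used edgeR 4.0.16 (R 4.3.3) with robust quasi-likelihood fits after TMM normalization (factors 0.966 to 1.03), with Benjamini-Hochberg adjustment over all tested genes; standard errors come from the F statistic. Alternatives were DESeq2 1.42.0, RLE factors, other filters, limma 3.58.1 on log2(RPKM + 1) and log2(RPKM + 0.1), a block for replicate number, and each sample left out. Of these fits only the main edgeR fit was tested on simulated data, with changes larger than those of the members. Depth was 21.02 M to 30.99 M reads (M, 1e6) per sample.

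The members and gene lists were chosen with earlier results of these data known. Besides the members, named genes were those called in edgeR (0), the 3 widest differences without overlap in 3 lists, and the 5 nearest profiles; Ccdc85b, Prdx2, Mmp13, Itgb3 and Xist were named after their values were seen. Some genes that this rule selects are not reported here.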

Additional observations from a re-analysis of the deposited data

How the results depend on the processing

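The edgeR fit of all samples called 0 genes in each direction, and other fits called some, but 0 members were called lower in any of the 11 alternatives. DESeq2 called 434 genes higher and 263 lower and 2 members higher (Fos and Maff). Without a filter on low counts, 225 genes were higher and 61 lower, with 1 member higher (Maff). The replicate gaps of WT and of Senp6-Mut correlated at -0.0561 over the tested genes with a mean log2 CPM above 0. Replicate numbers were therefore not taken as a pairing. Adding a replicate block called 84 genes higher and 33 lower, with 0 members among them. With 1 sample left out, between 68 and 1296 genes were called higher and between 37 and 1444 lower, and between 0 and 2 members higher; these fits assume that the lone sample of its group varies like the other group. RLE factors, at least 10 counts in every sample and both limma fits called 0 genes. All 11 alternatives kept Fos between 0.78 and 1.09 and Maff between 1.03 and 1.61 on the log2 scale, and they kept Fosl1, Fosl2, Jun, Junb and Atf3 above 0. Fosb (-0.36) and Jund (-0.28) were below 0 without WT replicate 2 (0.54 and 0.39 without WT replicate 1), and Jund (-0.02) without Senp6-Mut replicate 1; the cause was not tested. With all samples, 6 or 7 members had both mutant samples above both controls; against WT replicate 2 alone there were 9, and against WT replicate 1 alone 6. The median log2 fold change of the members was 0.19 to 0.37. On counts not divided by length, the share of Fos in the FOS family was 1.16 percentage points higher in the mutant (2.79 on RPKM) and that of Fosl2 fell by 0.994 points (2.50 on RPKM), since the long Fosl2 gene then weighs more. The median of the target genes was 0.51 to 0.84 over all alternatives. For the scarce members depth was a limit: Atf3 had at most 36 reads and Batf3 at most 3.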
